A study of Mus musculus with 8 samples.

Results

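Lipid droplet coats and triglyceride lipases were examined as 10 genes, taken by symbol from the 21532 genes of a liver RNA-Seq table. The set holds 4 perilipins (Plin2, Plin3, Plin4 and Plin5), 3 CIDE genes (Cidea, Cideb and Cidec), the lipases Pnpla2 and Lipe, and the lipase inhibitor G0s2. All 10 genes passed the filter on low values, a mean normalized count of at least 10 over the 8 mice, which 15989 genes passed.

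A liver cell keeps triglyceride in lipid droplets, each covered by a single layer of phospholipid and coat proteins. Perilipins sit on that surface and control how far lipases reach the stored fat, while CIDE proteins gather where droplets touch and move lipid from the smaller droplet to the larger. Breakdown starts with adipose triglyceride lipase, the product of Pnpla2, which G0s2 binds and blocks, and goes on with hormone-sensitive lipase, the product of Lipe. In fatty liver of obese mice, Plin2, Plin4, Cidea and Cidec are known to be expressed strongly, in part through the nuclear receptor PPARγ.

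The liver RNA came from male db/db mice, which carry a defective leptin receptor in every cell and become obese, diabetic and steatotic. Per the study's methods, treatment began at 8 weeks of age on a C57B/6J background, and mice received 5 mg/kg of control or AF1 peptide by retro-orbital injection, with 2 injections a week for 5 weeks. AF1 peptide is a shortened sequence derived from the N-terminal region of estrogen receptor α, with inner segments deleted, joined to a FITC-labelled TAT sequence, a carrier that takes peptides into cells. The control and AF1 peptide groups held 4 mice each, with 1 library per mouse, and no lean mice were in the series. What the control consisted of, and whether mice were fed or fasted at collection, is not given in the sources used here. The comparison asks how liver gene expression differs after treatment with the peptide in obese mice.

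Library depth was 35260283 to 45117528 reads in the control group and 23031880 to 43978158 in the AF1 peptide group. The library of AF1 peptide replicate 1 stood apart from the other 7. On a principal component that held 39.3% of the variance it lay at -74.2, against -2.33 to 21.8 for the others. Hepatocyte markers were abundant in every mouse, with a summed normalized count of 2323441 in that mouse and 2661410 to 3182904 in the rest. Of the 10 hepatocyte markers listed, however, that mouse was the highest of 8 for 6 and the lowest for 3. Kupffer cell markers summed to 2634 in AF1 peptide replicate 1, against 5745 to 7281 in the control mice and 6552 to 7182 in the other AF1 peptide mice, and the same mouse was the lowest of 8 for 10 of the 11 listed. Results are therefore given with and without this mouse. In whole tissue, fewer cells of a type and less RNA per cell cannot be told apart.

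The threshold for calls was an unadjusted p under 0.05, from the study's methods, with more than 1.3-fold change, the mark of its volcano plot. By this threshold, with p from limma, Lipe was called higher with AF1 peptide and Plin5 and Cideb were called lower. Among all genes tested, 286 (1.79%) were called higher and 304 (1.9%) lower. Thus 1 of 10 members stood against a background of 1.79%, and 2 of 10 against 1.9%. The unadjusted limma p was under 0.05 for 4 of 10 members, with Plin3 as the fourth, and for 6.19% of all genes. The control and AF1 peptide mice did not overlap for 2 members, Plin5 and Lipe, and for 3.9% of all genes. With Benjamini-Hochberg adjustment limma called 0% of all genes and none of the members at 0.05, although 990 genes had an unadjusted p under 0.05. On the same genes edgeR called 0 and DESeq2 called 3 after adjustment, and neither called a member at that level. The median log2 fold change over the members was -0.35, against -0.01 over all genes, and became -0.12 without AF1 peptide replicate 1.

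**Figure D1:**
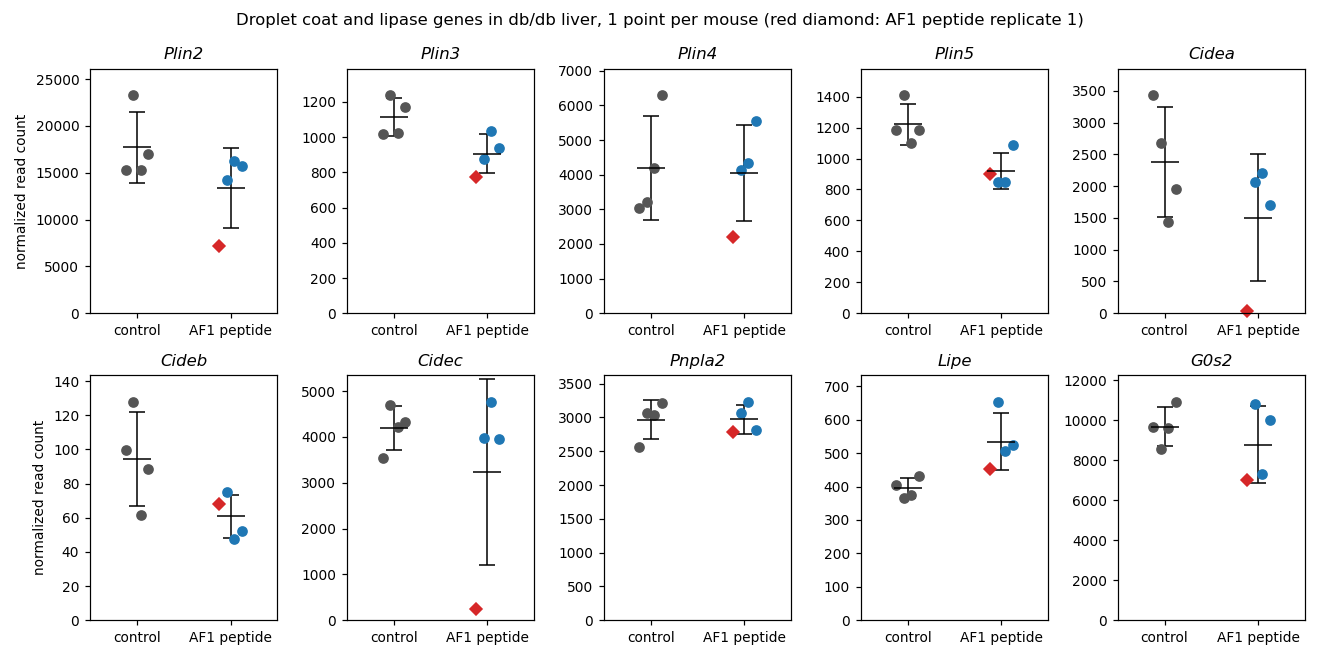
Normalized read count (vertical axes, each starting at 0) of the 10 genes in the 4 control and 4 AF1 peptide mice, 1 point per mouse, with horizontal bars at the group mean and error bars of 1 SD. AF1 peptide replicate 1, the red diamond, lies near 0 for Cidea (38.3) and Cidec (243), while the groups do not overlap for Plin5 and Lipe.

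Level per length set the scale of each gene in this liver. Counts were divided by the kilobases of merged exons in GENCODE M21, and all levels in this paragraph are normalized counts per kilobase in the control mice (mean ± SD, n = 4). G0s2 stood highest at 11108 ± 1122, followed by Plin2 at 5043 ± 1090. Cidec at 2260 ± 259 and Cidea at 2133 ± 781 had overlapping control ranges. Pnpla2 followed at 983 ± 94.4, overlapping with Plin4 at 726 ± 260, which in turn overlapped with Plin5 at 585 ± 64.1. Plin3 lay at 294 ± 28.9. Lipe at 67.1 ± 5.03 and Cideb at 63.5 ± 18.5 were the lowest and overlapped each other. However, 76.3% of the exon bases of Cideb, and 15.6% of those of Lipe, are shared with a gene on the opposite strand. The strand setting of the counting is not given, so the level of Cideb per length, and its last place, are uncertain. The inhibitor gene was thus far above the lipase it binds, with a G0s2 to Pnpla2 ratio per length of 9.66 to 13.1 in the control mice.

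**Figure D2:**
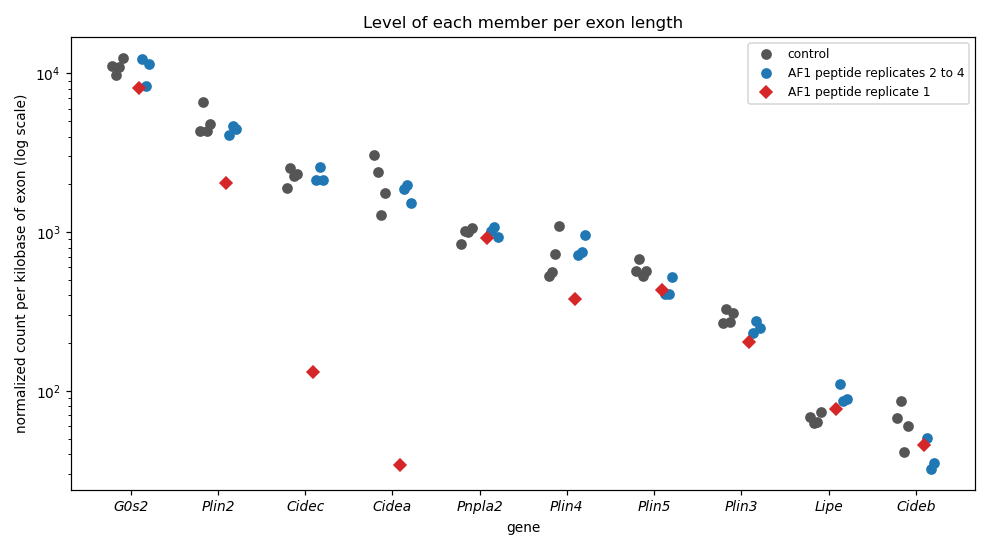
Normalized count per kilobase of exon (log axis) of the 10 genes, ordered by control mean, in each control mouse, in AF1 peptide replicates 2 to 4 and in AF1 peptide replicate 1. Levels run from 63.5 per kilobase for Cideb to 11108 for G0s2, and AF1 peptide replicate 1 lies far below the other mice at Cidec and Cidea. Most exon bases of Cideb are shared with Nop9, so its level is uncertain.

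Among the perilipins, Plin5 was lower in all 4 AF1 peptide mice than in any control mouse, Plin3 was lower by a smaller fold, and the values of Plin2 and Plin4 overlapped widely. Plin5 couples droplets to mitochondria and binds both Pnpla2 protein and its activator. Its normalized counts were 1185, 1412, 1100 and 1185 in the control mice and 897, 849, 846 and 1087 in the AF1 peptide mice. The highest AF1 peptide mouse was replicate 4, just under the lowest control, and AF1 peptide replicate 1 sat within its own group. Group means were 1221 ± 134 and 920 ± 114 (SD, n = 4 each). For Plin5 the log2 fold change was -0.41 (SE 0.12, 95% confidence interval -0.67 to -0.15, limma adjusted p = 0.763), with the 69th smallest unadjusted p of all genes tested. An exact two-sided permutation test over the 70 assignments of mice gave p = 0.0286, the smallest that 4 against 4 mice allow. Without AF1 peptide replicate 1 the log2 fold change was -0.40 (limma adjusted p = 0.456).

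Because Plin5 passed the threshold without overlap between groups, the sequence at its start site is shown. RefSeq (GRCm38.p6) places this start in chr17:56117499-56117798, minus strand, with Plin4 as the next coding gene on the lower side and Plin3 farther along the same chromosome. The capitals mark AGGTCA, the hexamer bound by nuclear receptors, at position -170 from the start.

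Plin5: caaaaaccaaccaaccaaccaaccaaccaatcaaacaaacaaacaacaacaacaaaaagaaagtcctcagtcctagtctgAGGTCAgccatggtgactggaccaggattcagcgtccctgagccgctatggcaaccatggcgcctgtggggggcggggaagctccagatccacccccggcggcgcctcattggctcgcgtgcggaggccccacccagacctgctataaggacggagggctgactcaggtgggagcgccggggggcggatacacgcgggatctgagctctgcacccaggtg

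The hexamer AGGTCA occurs, on either strand, in 16.3% of the 32851 promoter windows of this length. Among the 12 windows that matched 9 of the 10 members, it was in that of Plin2 and in both of Plin5. In the Plin5 window not shown it lay at position 14. Cidea had no window, so the matches do not cover it. A full PPAR element, which is AGGTCA repeated in the same direction after 1 free base and so contains the hexamer, was found in 0 of the 12 and in 0.0396% of all windows. The estrogen response element, GGTCA and TGACC with 3 free bases between them, was likewise found in 0 of the 12, against 0.07% of all. These are matches of letters within short windows, and binding was not measured.

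Plin2, the most abundant droplet coat of hepatocytes, had normalized counts of 15286, 23323, 15259 and 16977 in the control mice and 7137, 14266, 16301 and 15736 in the AF1 peptide mice. Control replicate 2 was highest and AF1 peptide replicate 1 was less than any other mouse, while AF1 peptide replicates 3 and 4 lay inside the control range. Means were 17711 ± 3827 and 13360 ± 4236 (SD, n = 4 each). With all 8 mice the log2 fold change was -0.46 (SE 0.26, 95% confidence interval -1.03 to 0.12, limma adjusted p = 0.768). Without AF1 peptide replicate 1 it was -0.18 (limma adjusted p = 0.71), and the coefficient of variation of the AF1 peptide group went from 31.7% to 6.8%.

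Plin3, a coat that moves between cytosol and droplet surface, had 1019, 1240, 1024 and 1168 normalized counts in the control mice and 772, 875, 1035 and 939 in the AF1 peptide mice. Of the AF1 peptide mice, 3 lay below every control and replicate 3 lay among the lower controls. Its log2 fold change was -0.30 (SE 0.12, 95% confidence interval -0.56 to -0.04, limma adjusted p = 0.763), with an unadjusted p under 0.05 but less than 1.3-fold change. The exact permutation p was 0.0857, and without AF1 peptide replicate 1 the log2 fold change was -0.23 (limma adjusted p = 0.508).

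Plin4, a coat best known from fat cells, varied most between control mice of the perilipins. Normalized counts were 3040, 3221, 4200 and 6308 in the control mice and 2197, 4150, 4332 and 5555 in the AF1 peptide mice. Control replicate 4 was the highest of all 8 mice, and 3 of the 4 AF1 peptide mice fell inside the control range. Plin4 had a log2 fold change of -0.06 (SE 0.29, 95% confidence interval -0.71 to 0.59, limma adjusted p = 0.976) and became 0.21 without AF1 peptide replicate 1 (95% confidence interval -0.27 to 0.69, limma adjusted p = 0.762). Its direction was therefore not fixed by these mice.

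The balance of the coats was read from ratios within each mouse, which do not depend on library scaling. The ratio of Plin5 to Plin2 counts was 0.0605 to 0.0775 in the control mice and 0.0519, 0.0595 and 0.0691 in AF1 peptide replicates 3, 2 and 4. AF1 peptide replicate 1 stood apart at 0.126. The ratio of Plin4 to Plin2 was 0.138 to 0.372 in the control mice and 0.266 to 0.353 in all 4 AF1 peptide mice, within the control range.

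**Figure D3:**
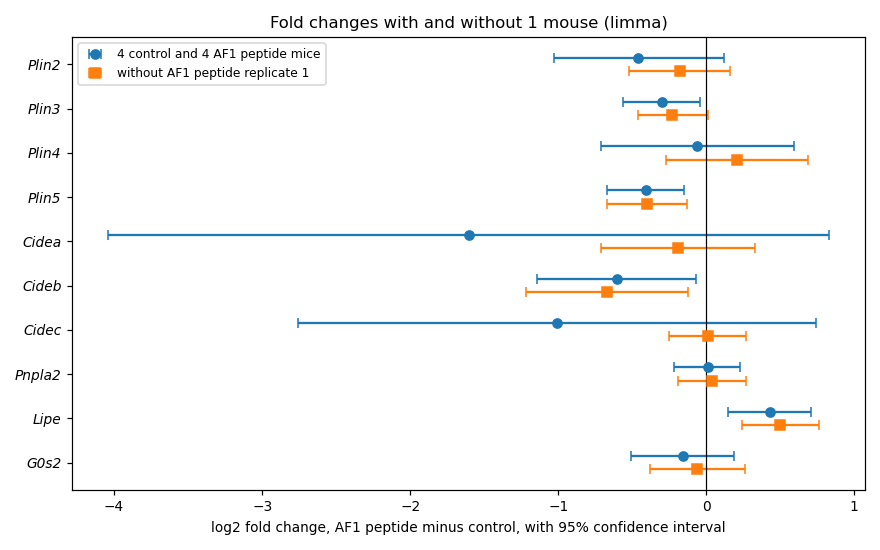
Log2 fold change of each gene (AF1 peptide minus control) with its 95% confidence interval from limma, for all 8 mice (circles) and without AF1 peptide replicate 1 (squares). Cidea goes from -1.60 to -0.19 and Cidec from -1.01 to 0.01 when that mouse is left out, whereas Plin5 stays at -0.41 and -0.40.

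The CIDE genes separated into a pair, Cidea and Cidec, that nearly vanished in a single AF1 peptide mouse, and Cideb, which was lower in the AF1 peptide group and in which that mouse did not stand apart. Cidea is a droplet fusion protein best known from brown fat and is raised in steatotic liver. Its normalized counts were 3436, 2683, 1437 and 1955 in the control mice and 38.3, 2071, 2204 and 1698 in the AF1 peptide mice. In AF1 peptide replicate 1 the value came from 41 reads (exact Poisson 95% interval 27.5 to 51.9 on the normalized scale, counting error only), and the control mean was 62.1-fold higher. The other AF1 peptide mice, at 1991 ± 262 (SD, n = 3), all lay within the control range. For Cidea the log2 fold change was -1.60 (SE 1.10, 95% confidence interval -4.04 to 0.83, limma adjusted p = 0.785), and -0.19 without that mouse (95% confidence interval -0.71 to 0.33, limma adjusted p = 0.81).

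Cidec, which drives the growth of large droplets, showed the same split. Normalized counts were 3542, 4691, 4215 and 4333 in the control mice and 243, 3965, 4768 and 3954 in the AF1 peptide mice. The control mean was 17.3-fold above AF1 peptide replicate 1, while replicate 3 was the highest of all 8. Group means were 4195 ± 480 for control and 4229 ± 467 for the remaining 3 AF1 peptide mice. The log2 fold change of Cidec was -1.01 (SE 0.79, 95% confidence interval -2.76 to 0.74, limma adjusted p = 0.806) with all mice and 0.01 (95% confidence interval -0.25 to 0.27, limma adjusted p = 0.976) without replicate 1.

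Cideb is the member of the family that healthy hepatocytes express, where it takes part in loading lipid onto VLDL. Its normalized counts were 99.7, 128, 61.6 and 88.8 in the control mice and 68.1, 74.9, 47.8 and 52.3 in the AF1 peptide mice. The groups overlapped through control replicate 3, and 2 AF1 peptide mice lay below every control. The log2 fold change was -0.60 (SE 0.24, 95% confidence interval -1.14 to -0.07, limma adjusted p = 0.763), with an exact permutation p of 0.0857. Without AF1 peptide replicate 1 it was -0.67 (limma adjusted p = 0.476). Of the 1488 exon bases of Cideb in GENCODE M21, 1136 (76.3%) are shared with Nop9 on the opposite strand, and the strand setting of the counting is not given in the sources used here, so reads of the 2 genes may not be told apart.

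The ratio of Cidec to Cideb counts lay between 35.5 and 68.4 in the control mice and between 53 and 99.8 in AF1 peptide replicates 2 to 4. It was 3.56 in AF1 peptide replicate 1.

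Lipe was higher in all 4 AF1 peptide mice than in any control mouse, whereas Pnpla2 hardly differed. Hormone-sensitive lipase, the product of Lipe, cleaves diglyceride and cholesteryl ester. Its normalized counts were 405, 367, 375 and 432 in the control mice and 453, 654, 507 and 525 in the AF1 peptide mice. All 4 AF1 peptide mice lay above the highest control, with replicate 1 nearest to it and replicate 2 farthest. Means were 395 ± 29.6 and 535 ± 85.2 (SD, n = 4 each). This gave a log2 fold change of 0.43 (SE 0.13, 95% confidence interval 0.15 to 0.71, limma adjusted p = 0.763), with an exact permutation p of 0.0286, and 0.50 without AF1 peptide replicate 1 (limma adjusted p = 0.452). AF1 peptide replicate 2 weighs in this value, since without it the log2 fold change was 0.33 (limma adjusted p = 0.851), under 1.3-fold. With all libraries scaled to equal totals the log2 fold change was 0.34 (limma adjusted p = 0.867), again under 1.3-fold. The 13 protein-coding mitochondrial genes held 22.4 to 34.3% of reads in the control mice. They held 34.3 to 37.8% in AF1 peptide replicates 2 to 4 and 20.8% in replicate 1. Mitochondrial rRNA genes are not in these shares.

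The RefSeq start sites of Lipe are shown because it was the only member called higher. They lie in chr7:25395938-25396237 and chr7:25390063-25390362 of GRCm38.p6, both on the minus strand. Capitals mark the E box CACGTG at position -155 of the window printed first and the forkhead element TGTTTAC at position -119 of the other.

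Lipe, outer start: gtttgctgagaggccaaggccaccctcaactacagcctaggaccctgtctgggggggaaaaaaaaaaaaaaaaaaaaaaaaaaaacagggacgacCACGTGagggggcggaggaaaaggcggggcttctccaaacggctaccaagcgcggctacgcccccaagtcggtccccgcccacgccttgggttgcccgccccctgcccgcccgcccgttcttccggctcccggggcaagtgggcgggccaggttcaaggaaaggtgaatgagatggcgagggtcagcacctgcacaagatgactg

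Lipe, inner start: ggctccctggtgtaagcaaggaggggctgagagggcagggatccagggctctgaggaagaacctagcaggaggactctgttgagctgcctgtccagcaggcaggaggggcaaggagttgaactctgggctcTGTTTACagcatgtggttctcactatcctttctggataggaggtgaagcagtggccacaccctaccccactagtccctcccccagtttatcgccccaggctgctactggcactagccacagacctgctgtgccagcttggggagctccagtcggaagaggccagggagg

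CACGTG occurs in 7.15% of all promoter windows and, among the members, in Plin2 and Lipe. TGTTTAC, read on both strands, occurs in 3.65% of all windows and among the members in Lipe alone. The cAMP response element TGACGTCA was found in 0 of the 12 member windows, against 1.79% of all. Of the exon bases of Lipe, 15.6% are shared with 4732471J01Rik on the opposite strand.

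Pnpla2, whose product takes the initial fatty acid off triglyceride, was the most even member. Normalized counts were 2558, 3065, 3030 and 3217 in the control mice and 2786, 3067, 3233 and 2811 in the AF1 peptide mice. The log2 fold change was 0.01, with a 95% confidence interval of -0.22 to 0.23 under the scaling of the main test (SE 0.10, limma adjusted p = 0.994). The coefficient of variation was 9.6% in the control mice and 7.21% in the AF1 peptide mice, and AF1 peptide replicate 1 was within the control range. The sign of this small difference turned negative under equal totals, where the log2 fold change was -0.09.

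G0s2, the inhibitor of that lipase, had 9634, 8535, 9610 and 10923 normalized counts in the control mice and 7007, 10793, 7286 and 10016 in the AF1 peptide mice. AF1 peptide replicates 1 and 3 lay below every control and the other two lay among the controls. Its log2 fold change was -0.16 (SE 0.16, 95% confidence interval -0.51 to 0.19, limma adjusted p = 0.845), and -0.06 without AF1 peptide replicate 1 (limma adjusted p = 0.907).

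Within each mouse, the G0s2 to Pnpla2 ratio of counts was 2.79 to 3.77 in the control mice and 2.25 to 3.56 in the AF1 peptide mice. Abhd5, the activator of the same lipase, gave an Abhd5 to Pnpla2 ratio of 0.285 to 0.524 and 0.339 to 0.394. Inhibitor and activator thus overlapped between groups relative to their enzyme. The Lipe to Pnpla2 ratio was 0.12 to 0.158 in the control mice and 0.157 to 0.213 in the AF1 peptide mice, with group means of 0.134 ± 0.0172 and 0.18 ± 0.0258 (SD, n = 4 each). The ranges touched at a single pair of mice, control replicate 1 and AF1 peptide replicate 3. These ratios were not tested.

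AF1 peptide replicate 1 was the lowest of 8 mice for 6 of the 10 members (Plin2, Plin3, Plin4, Cidea, Cidec and G0s2) and the highest for 0. Over all genes tested the same mouse was lowest for 23.4% and highest for 25.9%. On the log2(normalized count + 1) scale its Cidea value minus the control mean was -5.85, the 2nd lowest of 15989 genes. Cidec, at -4.10, was the 16th lowest. The remaining members lay closer, with Plin2 at -1.29 (4.23% of genes lower), Plin4 at -0.87, Plin3 at -0.52, G0s2 at -0.46, Plin5 at -0.44, Cideb at -0.42, Pnpla2 at -0.09 and Lipe at 0.20. The patatin-like lipase genes Pnpla3 and Pnpla5 also lay near the bottom, at -5.29 and -4.97, Pnpla5 being named after its values were seen. Pnpla3 had 15.9 normalized counts in this mouse, 322 to 1090 in the control mice and 371 to 720 in the other AF1 peptide mice. The low Kupffer cell markers of this mouse moved with these values, and their part in the result was not tested.

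**Figure D4:**
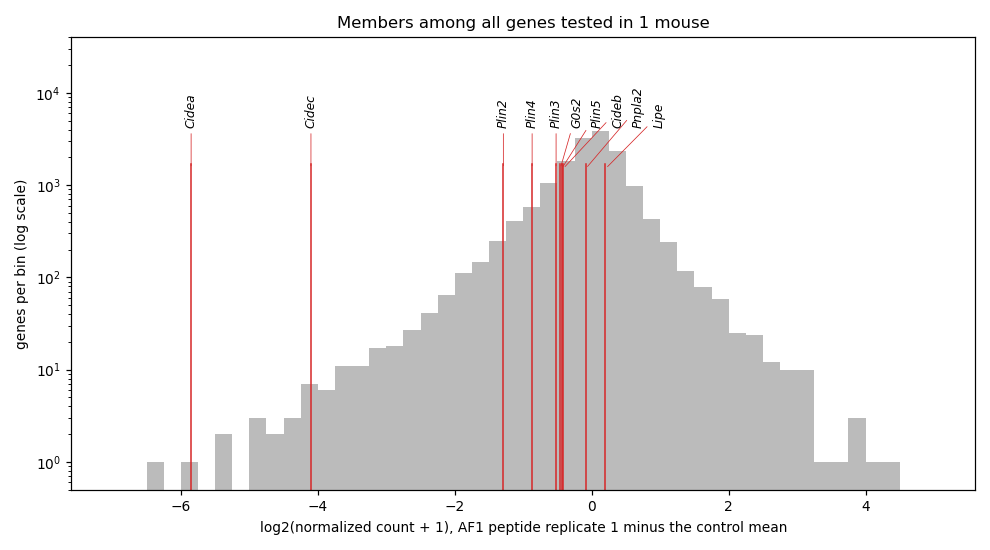
Number of genes (log axis) in bins of the difference between AF1 peptide replicate 1 and the control mean on the log2(normalized count + 1) scale, over 15989 genes, with red lines at the 10 members. Cidea (-5.85) and Cidec (-4.10) stand in the lower tail, and the other 8 lie between -1.29 and 0.20.

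The spread of the AF1 peptide group for Cidea and Cidec came mostly from that mouse. The coefficient of variation of the AF1 peptide group fell from 66.5% to 13.2% for Cidea and from 62.8% to 11% for Cidec when replicate 1 was left out, against 36.6% and 11.5% in the control mice. For Plin5 and Cideb it went the other way, from 12.4% to 14.9% and from 21.1% to 24.9%. Control replicate 2 was the highest of 8 for 4 members (Plin2, Plin3, Plin5 and Cideb). Leaving this mouse out removed the calls of Plin5, whose log2 fold change became -0.34 (limma adjusted p = 0.994), and of Cideb, at -0.44 (limma adjusted p = 0.994). Both calls were likewise lost without AF1 peptide replicate 3, at -0.37 for Plin5 and -0.50 for Cideb. Plin5 also lost its call without AF1 peptide replicate 2 (-0.37). Cideb lost its call without control replicate 1 (-0.56), control replicate 4 (-0.62) or AF1 peptide replicate 4 (-0.54).

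Genes that followed the called members most closely over the 8 mice were ranked by Pearson correlation of log2 values, among 10748 or 10749 genes with a mean of at least 100. For Plin5 these were Tmod3 (r = 0.964), Sdcbp (0.954) and Orc5 (0.951). For Cideb they were Gm13991 (0.953), Ubl3 (0.95) and Grpel1 (0.948), and for Lipe they were Atg14 (0.957), Sergef (0.955) and Ncoa6 (0.935). Without AF1 peptide replicate 1 these r values lay between 0.949 and 0.972, in mice that had also served to pick the genes. The r that chance gives among so many genes over 8 mice was not assessed. None is a droplet coat or a triglyceride lipase, and the likeness includes the difference between groups.

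Other proteins of droplet formation mostly did not pass the threshold. Of 21 tested, 0 were called higher and 2 lower, and the median log2 fold change was -0.10. Without AF1 peptide replicate 1, 0 were called higher and 1 lower, and the median was -0.06. The background for this and the following lists was 1.79% of all genes called higher and 1.9% lower. Hilpda, which like G0s2 inhibits Pnpla2 protein, had 107, 164, 111 and 104 normalized counts in the control mice and 44.8, 58.4, 121 and 91.8 in the AF1 peptide mice. Its log2 fold change was -0.69 (SE 0.30, limma adjusted p = 0.763), and the groups overlapped. Hilpda lost its call without AF1 peptide replicate 1 (-0.46), without AF1 peptide replicate 2 (-0.58) or any of control replicates 1 to 3 (-0.54 to -0.74). The call of Hilpda was also lost under edgeR and DESeq2 (-0.60 in both). At -0.69 it was lost as well without the intensity trend, with its own variance and with equal totals outside all mitochondrial genes. Mospd2, a tether between the endoplasmic reticulum and droplets, was lower without overlap, from 220 ± 20.7 to 160 ± 42.1 (log2 fold change -0.49, SE 0.19, limma adjusted p = 0.763). The log2 fold change of Mospd2 was -0.45 without AF1 peptide replicate 1. Its call was lost without AF1 peptide replicate 3 (-0.31) or control replicate 2 (-0.42), and with its own variance (-0.49).

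Among 29 further lipases, cofactors and genes of glycerol handling, 1 was called higher and 0 lower, with a median of -0.08. The gene called was Ces3b, a carboxylesterase of the endoplasmic reticulum, which went from 2217 ± 160 to 3163 ± 448 without overlap (log2 fold change 0.50, SE 0.12, limma adjusted p = 0.763), and its log2 fold change was 0.49 without AF1 peptide replicate 1. Abhd5 had means of 1219 ± 286 and 1079 ± 119 (log2 fold change -0.15). Mgll, the monoglyceride lipase that ends the pathway, had 4490 in AF1 peptide replicate 1 and 9749 to 10650 in the other AF1 peptide mice, against 7309 to 10292 in the control mice. AF1 peptide replicate 1 was the lowest of 8 for 13 of these 29 genes. Without that mouse 2 of the 29 were called higher and 0 lower, and the median was -0.01.

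Of 28 genes of hormone signalling to lipolysis, 0 were called in either direction, and 4 had an unadjusted limma p under 0.05 at less than 1.3-fold. They were Prkar2a (log2 fold change 0.31), a regulatory subunit of protein kinase A, the adrenergic receptor gene Adra1b (0.29), the phosphatase gene Ppp2ca (-0.28) and the AMP-activated kinase gene Prkaa2 (-0.29). Pde3b, the phosphodiesterase through which insulin restrains lipolysis, had a log2 fold change of -0.02. In this list 2 genes were called lower and 0 higher without AF1 peptide replicate 1.

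Of 27 transcription factors and cofactors known for droplet and lipase genes, 2 were called higher and 0 lower. Foxo1, a forkhead factor held back by insulin, had 525, 502, 485 and 509 normalized counts in the control mice and 932, 658, 660 and 608 in the AF1 peptide mice. The groups did not overlap, and AF1 peptide replicate 1 was the highest (log2 fold change 0.48, SE 0.13, limma adjusted p = 0.763). Without that mouse it was 0.34, under 1.3-fold. Crtc2, a coactivator of CREB, had a log2 fold change of 0.42 (SE 0.16, limma adjusted p = 0.763) and again its highest value, 2339, in AF1 peptide replicate 1. The receptors Pparg (671 ± 72.2 and 685 ± 46.5) and Ppara (6174 ± 613 and 6083 ± 926) had log2 fold changes of 0.03 and -0.03. Srebf1 had -0.12 and Creb3l3 0.15. Crtc2 was at 0.25 without AF1 peptide replicate 1, where 0 genes of this list were called. It also lost its call without control replicate 2 (0.36) or control replicate 4 (0.40), and under equal totals both Foxo1 (0.39) and Crtc2 (0.33) lost theirs.

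Genes known to rise with PPARγ in fatty liver, apart from the members, were lower in value in 14 of 14 tested, against 51.8% of all genes, and 1 of the 14 passed the threshold. Their median was -0.37. Without AF1 peptide replicate 1, which was the lowest of 8 mice in 10 of them, 12 of 14 were lower in value, against 50.8% of all genes, and the median was -0.13. Fasn, fatty acid synthase, was the gene called lower, from 42145 ± 2161 to 31140 ± 7151 without overlap (log2 fold change -0.47, SE 0.19, limma adjusted p = 0.763). It lost its call without AF1 peptide replicate 1 (-0.28) or any of control replicates 1 to 3 (-0.44 to -0.47). Without AF1 peptide replicate 1, or with each gene's own variance, 0 of the 14 were called. PPARα targets had a median of -0.12, with Acot3 called higher and Hilpda lower among 30 tested, and the median was 0.06 without AF1 peptide replicate 1. Without that mouse 2 were called higher, Acot3 among them (0.62), and 1 lower, which was not Hilpda. Under edgeR, or with each gene's own variance, 0 of the 30 were called in either direction, and under equal totals 0 were called higher. Acot3 lost its call without control replicate 1 (0.49), control replicate 2 (0.41) or AF1 peptide replicate 3 (0.49).

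**Figure D5:**
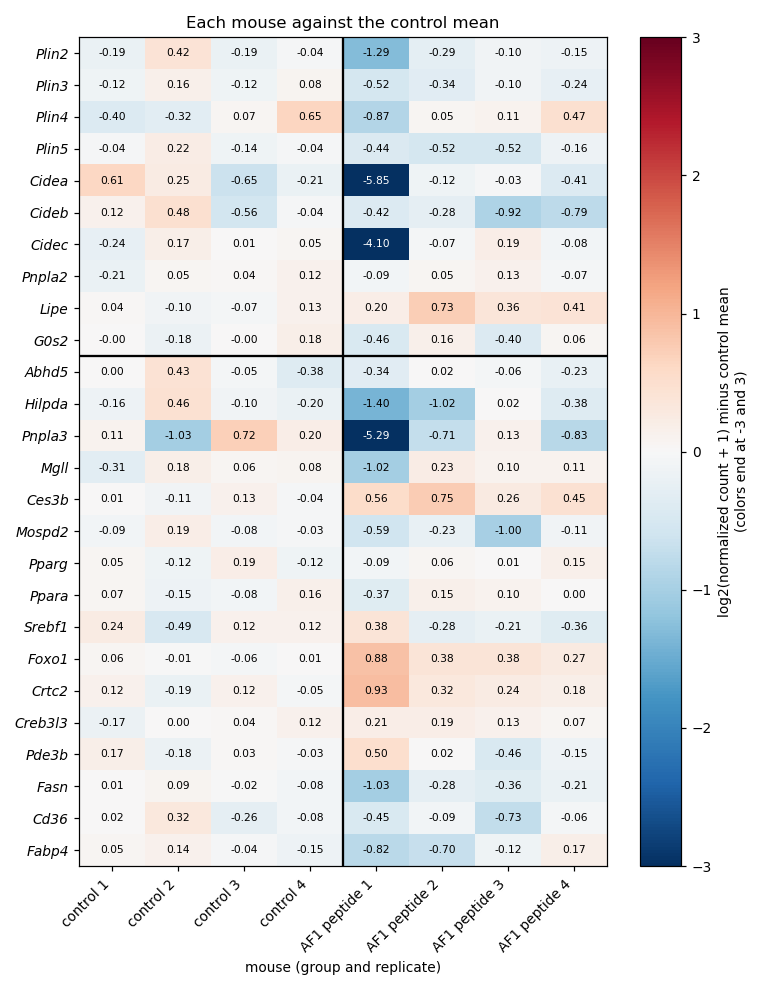
Difference of each mouse from the control mean on the log2(normalized count + 1) scale, with the 10 members above the black line and 16 related genes below it, colors ending at -3 and 3 and values printed in each cell. In AF1 peptide replicate 1, Cidea (-5.85), Pnpla3 (-5.29) and Cidec (-4.10) pass the end of the scale, whereas Lipe is above 0 in all 4 AF1 peptide mice and Plin5 below 0 in all 4.

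Several members are also fat cell genes. Summed fat cell markers were 958 to 1240 in the control mice and 829 to 1225 in the AF1 peptide mice, with 1225 in AF1 peptide replicate 1, and 4 of the 11 listed were tested. The markers went opposite ways in that mouse, since Adrb3 was at 746 (188 to 294 in the control mice) while Fabp4 at 444 and Cfd at 4.67 were the lowest of 8. Stellate cell markers, from cells that store retinyl ester droplets, summed to 11310 to 13565 in the control mice and 10099 to 17528 in the AF1 peptide mice, of which 10099 was replicate 1. Of 8 muscle markers 1 was tested, Des, which is also a stellate cell marker and had 141 to 202 normalized counts in the control mice and 121 to 246 in the AF1 peptide mice. Within the marker lists 2 genes were called lower, Dcn of stellate cells (log2 fold change -0.42) and Adgre1 of macrophages (-0.66). Adgre1 was at -0.45 and not called without AF1 peptide replicate 1, and neither was it called without control replicate 2 (-0.56) or 4 (-0.54). Dcn stayed called at -0.43 without AF1 peptide replicate 1 but not without AF1 peptide replicate 2 (-0.25) or without control replicates 1, 2 or 4 (-0.35 to -0.40). Dcn was also not called with the replicate block (-0.42) or with equal totals outside all mitochondrial genes. With each gene's own variance neither Dcn nor Adgre1 was called. Of the 12 stellate cell markers, 7 were higher in value and 5 lower, with a median of 0.03. Acta2 was among the higher (log2 fold change 0.54, not called) and was called higher without AF1 peptide replicate 1 (0.73). Under edgeR, under DESeq2 and without AF1 peptide replicate 2, 1 stellate cell marker was called higher. Summed ranges of the fat and stellate lists overlapped between groups, and the part of these cell types in the values of the members was not tested.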

How the data were processed

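Stranded mRNA libraries were prepared from TRIzol-extracted RNA of frozen livers of 8 db/db mice. Per the labels' processing notes from the submitters, reads were handled with Trim Galore 0.6.7, HISAT2 and SAMtools 1.17, and mm39 is the build named. The methods name GenomicAlignments for counting; annotation and strand setting are not given in the sources used here. The authors deposited normalized counts per gene and library, used here as signal values divided by a library factor. Division by the smallest step of each library gave whole reads for 100% of 172256 values (tolerance 0.01), so edgeR and DESeq2 could be run as alternatives. Replicates of a group differed by more than sampling noise, and nothing says whether mice shared cages or litters.

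The main test was limma 3.58.1 with intensity trend on log2(normalized count + 1), over the 15989 genes with a mean of at least 10, two-sided, with Benjamini-Hochberg adjustment over all of them. Fold changes on this scale understate low genes. The call rule was an unadjusted p under 0.05 with over 1.3-fold change. The study's RNA-Seq methods give the p value but name no test, and the fold comes from its volcano plot. All 10 members were named, and in each other list the genes with p under 0.05 or, failing 3 of these, the smallest p. A further 11 genes were chosen by name, among them regulators, lipases and the coat gene Plin1. Members and lists were chosen with earlier results of these data known. Alternatives were another pseudocount, no filter or a minimum in every mouse, TMM, equal totals, no trend, own variance, a replicate block, edgeR 4.0.16, DESeq2 1.42.0, and leaving out each mouse. Equal totals outside all mitochondrial genes was added after seeing the data. The fits were tested on simulated data. Exon lengths and overlaps came from GENCODE M21 and promoters from RefSeq, both on GRCm38, so their coordinates are not those of the table. Plin1, Ldaf1, Adipoq, Lep and Ucp1 were not found by symbol among the 21532 genes, so they were not analysed here.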

Additional observations from a re-analysis of the deposited data

Results flagged for a closer look

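A sample lay far from the other 3 of its group, by the gap to its neighbour over the group's range set against Dixon's 95% critical value, in 10 of 108 groups tested, where chance gives about 5.4. The rule was applied to normalized counts without logs, and on that scale none was a member. Cidea and Cidec in AF1 peptide replicate 1 were thus not flagged, although their control means were 62.1-fold and 17.3-fold higher. The log2 scale of the main test was not used for this rule. In AF1 peptide replicate 1, the monoglyceride lipase gene Mgll was low at 4490 (0.854), and the regulators Foxo1 at 932 (0.84), Crtc2 at 2339 (0.847) and Srebf1 at 8938 (0.84) were high. In the same mouse the hepatocyte genes Ttr, at 171433 (0.875), and Cps1, at 34576 (0.867), were low and high, and the Kupffer cell genes Cd5l, at 526 (0.861), and Folr2, at 28 (0.851), were low. Hilpda was high in control replicate 2 at 164 (0.876), and Ppp2ca was low in AF1 peptide replicate 3 at 1417 (0.851).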

How the results depend on the processing

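Over 22 alternatives Plin5 was called lower in 19, Lipe higher in 19 and Cideb lower in 16, while Plin4, Cidea, Cidec, Pnpla2 and G0s2 were called in 0. With equal totals, and with equal totals outside the symbols starting mt-, which cover only 2 rRNA genes since the mitochondrial protein genes lack that prefix, 0 members were called higher and 4 lower, adding Plin2 and Plin3, and 122 genes were called higher and 602 lower in the former, with a median of -0.10 over all genes in place of -0.01. With equal totals outside all mitochondrial genes, 1 was higher and 2 lower. With each gene's own variance, 1 was called lower. Leaving out 1 mouse gave 0 to 1 members higher, with 0 without AF1 peptide replicate 2, and 0 to 2 lower, with 0 without control replicate 2 or AF1 peptide replicate 3. Over all genes the same fits called 198 to 457 higher and 173 to 491 lower. The median of the lipolysis signalling list was -0.08 under both equal-total settings, and that of the fat cell list was 0.35 with a minimum of 10 in every mouse, where fewer genes were tested. Whether replicate numbers pair the mice was not settled. Same-numbered deviations correlated at -0.064 to 0.235, with a mean of 0.103, against -0.0342 for different numbers. Replicates 1 and 3 were matched best by their own number, and replicates 2 and 4 were not. A fit with the replicate block called 1 member higher and 2 lower, the same genes as without it, and 341 and 392 of all genes. No result changed direction while called. Causes were not tested. Cidea in AF1 peptide replicate 1 rests on 41 reads, which limits its fold.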

Other observations

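The gene farthest below the control mean in AF1 peptide replicate 1 was Rims4, named after its values were seen, at 0 normalized counts against 63.8 to 101 in the control mice and 34 to 77.4 in the other AF1 peptide mice. Pnpla5, also named after its values were seen, had 1.87 in this mouse, 54.4 to 136 in the control mice and 68.9 to 106 in the other AF1 peptide mice. Tat, a hepatocyte enzyme of tyrosine breakdown induced in fasting, had 68707 in this mouse, against 7551 to 23826 in the control mice and 6311 to 9220 in the other AF1 peptide mice.

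The fatty acid uptake gene Cd36 had normalized counts of 3208 ± 553 in the control mice and 2563 ± 541 in the AF1 peptide mice (SD, n = 4 each; log2 fold change -0.33), and the fatty acid carrier gene Fabp4 had 788 ± 67.1 and 633 ± 208 (log2 fold change -0.37). Ehhadh, an enzyme of peroxisomal fatty acid oxidation, had a log2 fold change of -0.35, under 1.3-fold. None of these passed the threshold for calls.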
